A study of Drosophila melanogaster with 6 samples.

Results

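The 36 genes described here are the core cell cycle and DNA replication genes of the fly, chosen by name: cyclins and their kinases, the E2F and Rbf regulators of S phase, the replication origin and MCM proteins, and regulators of mitosis. All 36 were found among the 17684 genes that RefSeq places on the 6 large chromosome arms, 35 by symbol and Mad2 by a synonym. They were sorted by role into 8 genes of G1 and S phase entry, 13 genes of DNA replication, and 15 genes of G2 and mitosis.

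The study asked which gene regions Simba1 and Simba2 occupy in neural stem cells of the larval brain of Drosophila melanogaster. It used DamID, in which a protein fused to the bacterial adenine methylase Dam marks GATC sites near where the protein sits, and the marked DNA is cut out with DpnI and amplified. Every library came from brains in which the transgene was driven by grh-Gal4, held in check by tub-Gal80ts, a temperature-sensitive repressor of Gal4. All 3 groups shared driver, repressor and temperature schedule: eggs laid within 4 h stayed 44 h at 18 °C until hatching, and the larvae then spent 24 h at 29 °C before dissection. The groups were UAS-Dam alone (the control, pUAST attB-LT3-NDam), Dam-Simba1 and Dam-Simba2, each present once in each of 2 batches. Each fusion library was compared with the control of its own batch, so the Dam-Simba1 and Dam-Simba2 lists of a batch share a control. The labels do not say whether batches came from separate animals or how many brains went into a library. Peak lists hold no transcript levels, so the labelled cell type could not be checked against its markers.

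Neural stem cells of the fly brain leave the embryo in a quiescent state and re-enter the cell cycle in the young larva. Entry into S phase turns on cyclin E with Cdk2 and on E2f1, which Rbf holds back, and a licensed replication origin carries the origin recognition complex and the MCM helicase. Entry into mitosis turns on Cdk1 with its cyclins, activated by Cdc25 phosphatases such as stg, and ends when the anaphase-promoting complex is switched on by fzy and fzr.

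The lists were unequal in size, which bears on every count that follows. They held 16837 and 20002 peaks on the arms for Simba1 batches 1 and 2, and 21727 and 33465 for Simba2 (mean 18419.5 ± 2238 against 27596 ± 8300, SD, n = 2 each; exact permutation test over libraries, two-sided p = 0.333, the smallest that 2 against 2 can give). Fusion libraries had 1069703 to 1506081 tags after filtering, and the controls 868080 and 1321104. The authors called peaks with a q limit of 1, so each list also holds weak peaks, and 42.0 to 60.5% of peaks had q of 0.05 or lower. The fold and q of a peak are the authors' values, and its background was computed from their pileup and fold. They are used here to describe and rank peaks within their own list, and q also to set limits for counts. Where values of different libraries stand side by side, the lists differ in length and depth.

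Most of the 36 genes had a peak in some library, in numbers close to those of genes of like length. A gene was counted when a peak overlapped its span or the 1 kb on either side. By this measure 22 and 17 genes had a peak in Simba1 batches 1 and 2, and 26 and 29 in Simba2 batches 1 and 2, where 51.1, 46.6, 58.9 and 77.4% of all genes had one. Longer genes collect more peaks, and the 36 spanned a median of 2869 bp against 1710 bp for all genes. The like-span count, which is the number of genes with a peak that would be found if each of the 36 behaved as the average of its class among 10 classes of gene span, was 20.1, 18.1, 23.0 and 30.4. The widest gap was that of Simba2 batch 1, with 26 genes against 23.0. At q of 0.05 or lower the counts were 20, 10, 17 and 26 genes, beside like-span counts of 15.1, 10.4, 17.1 and 25.1 and 38.7, 26.8, 43 and 62.7% of all genes. At q of 0.001 or lower they were 11, 2, 12 and 18 genes, beside 7.95, 3.12, 9.30 and 15.8 and 20.6, 8.35, 23.5 and 39.4%. Both limits left the fewest genes in Simba1 batch 2.

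A total of 11 genes had a peak in both Simba1 batches and 23 in both Simba2 batches, against like-span counts of 11.4 and 20.8 and shares of 28.8 and 51.3% among all genes. At q of 0.05 or lower these counts were 7 (14.7% of all genes) and 16 (34.5%), and at 0.001 or lower 1 (3.73%) and 8 (15.4%). The mean number was 19.5 ± 3.54 for Simba1 and 27.5 ± 2.12 for Simba2 (SD, n = 2 each). Simba2 had 4 more genes than Simba1 in batch 1 and 12 more in batch 2. Its lists were also the longer in each batch. With every list held to its 16837 strongest peaks, the counts were 22 and 15 genes for Simba1 batches 1 and 2 and 23 and 25 for Simba2. Like-span counts at that length were 20.1, 16.4, 20.5 and 23.7, and 51.1, 42.4, 52.1 and 59.1% of all genes had a peak. The mean difference was 5.5 genes where full lists gave 8. Like-span counts were also higher for Simba2 in each batch, with full and with equal lists. Not one of the 36 had peaks in both batches of one protein and neither batch of the other, where 0.594% of all genes did so for Simba1 and 5.78% for Simba2.

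**Figure D1:**
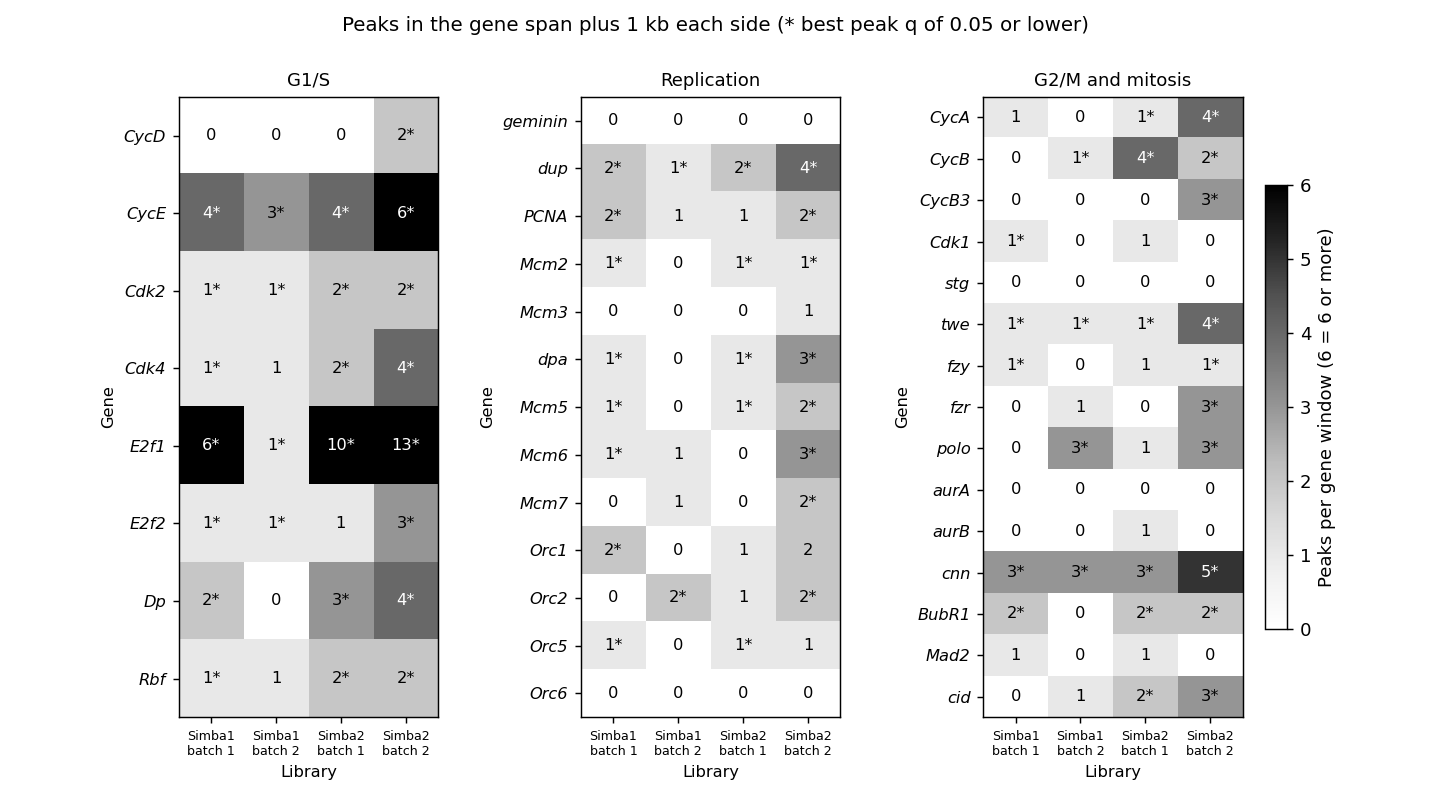
Number of peaks in the span plus 1 kb on each side of each of the 36 genes (rows, by role) in the 4 fusion libraries (columns); darker cells hold more peaks, and a star marks a best peak with q of 0.05 or lower. Of the 10 genes with a peak in all 4 columns 6 are in the G1/S panel, and geminin, Orc6, stg and aurA are at 0 throughout.

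A total of 10 genes had a peak in all 4 libraries, 24.1% of all genes did, and the like-span count was 9.67. They were CycE, Cdk2, Cdk4, E2f1, E2f2 and Rbf among the G1/S genes, dup and PCNA among the replication genes, and twe and cnn among the mitotic genes. The Simba1 batch 2 list set this number: 19 genes had a peak in the other 3 libraries, where the like-span count was 16.1 and the share of all genes was 39.7%. When peaks had to reach q of 0.05 or lower, 6 genes were left in all 4 libraries (CycE, Cdk2, E2f1, dup, twe and cnn), against a like-span count of 4.32 and 11.5% of all genes.

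A total of 4 genes had no peak in any library, a pattern of 10.1% of all genes, with a like-span count of 2.06. They were geminin, the inhibitor of the licensing factor dup, Orc6, a subunit of the origin recognition complex, stg, the Cdc25 phosphatase of somatic divisions, and aurA, a kinase of centrosomes and spindle assembly. A gene without a listed peak may still be bound, since Dam can mark only where GATC occurs and where the control leaves room for an excess.

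By role, counts lay within 3 genes of those for genes of like span. Of 8 G1/S genes, 7, 6, 7 and 8 had a peak in Simba1 batches 1 and 2 and Simba2 batches 1 and 2, beside like-span counts of 5.35, 4.97, 5.96 and 7.31. Of the 8, 6 had a peak in all 4 libraries, beside a like-span count of 3.34. Of 13 replication genes, 8, 5, 8 and 11 had a peak, beside 6.38, 5.58, 7.51 and 10.6, and 2 had one in all 4 libraries, beside 2.32. Of 15 mitotic genes, 7, 6, 11 and 10 had a peak, beside 8.33, 7.50, 9.55 and 12.5, and 2 had one in all 4 libraries, beside 4.01. In both batches of Simba2 the counts were 7 of 8, 8 of 13 and 8 of 15 genes, beside 5.64, 6.57 and 8.59. The G1/S counts were above the like-span counts throughout, whereas the mitotic counts were below them except in Simba2 batch 1. The 16 further G1/S genes of a wider list lay below the like-span counts except in Simba2 batch 2, with 8, 7, 8 and 15 genes beside 9.20, 8.45, 10.5 and 13.5, and 3 in all 4 libraries beside 4.90. These are counts of few genes and the roles were not tested against each other.

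**Figure D2:**
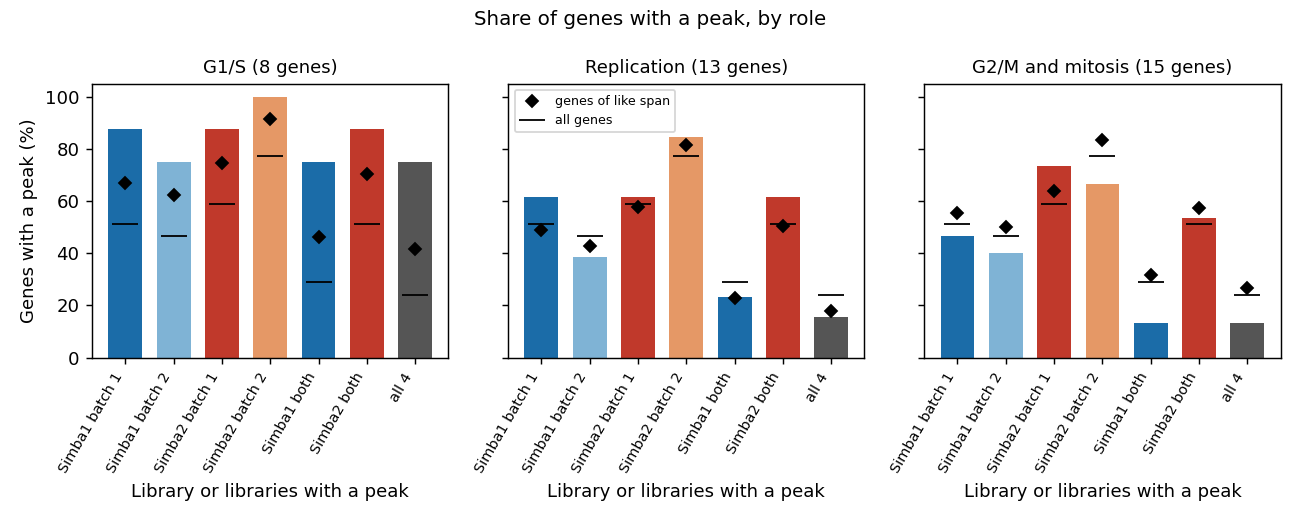
Share of genes with a peak (%) for the 3 roles, in each library, in both batches of each protein and in all 4 libraries; bars are the genes of the role, diamonds the share for genes of like span, and lines the share for all genes. The G1/S bars stand above their diamonds in every column, and the mitotic bars stand below theirs in every column except Simba2 batch 1.

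E2f1, the activating E2F, is the longest of the 36 genes (chromosome arm 3R, 21620304 to 21660871, 40568 bp) and held the most peaks. It had 6 and 1 peaks in Simba1 batches 1 and 2 and 10 and 13 in the Simba2 batches. Its best peak reached 3.13-fold over background (q 1.2e-06) in Simba1 batch 1, 5.34-fold (q 1.16e-06) in Simba1 batch 2, 3.66-fold (q 2.91e-07) in Simba2 batch 1 and 3.23-fold (q 4.16e-06) in Simba2 batch 2. Of the 36 genes it alone reached a q of 0.001 in every library, as did 2.4% of all genes. The best peaks lay at different places in the gene, 21349, 31717, 37906 and 5669 bp from its left end, the end with the lower coordinate. A single stretch from 31125 to 32937 bp was touched by peaks of all 4 libraries, and 5 more stretches were each touched in 3, always without Simba1 batch 2.

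Dp, the partner that E2F proteins need to bind DNA, had 2, 0, 3 and 4 peaks in the same order of libraries. Its best peaks reached 2.48-fold (q 4.77e-07) in Simba1 batch 1, 2.64-fold (q 9.46e-09) in Simba2 batch 1 and 3.41-fold (q 1.49e-12) in Simba2 batch 2. Their summits lay within 44 bp of each other, near the middle of the gene, in peaks that also reached the gene lncRNA:CR43918. Simba1 batch 2 had no peak there.

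E2f2, the repressing E2F (2L, 21154293 to 21156749), had 1, 1, 1 and 3 peaks, the best of each library at the left end of the gene. The best peak reached 2.70-fold (q 0.00303) and 3.03-fold (q 0.000976) in Simba1 batches 1 and 2, and 1.97-fold (q 0.0985) and 4.88-fold (q 1.9e-11) in Simba2 batches 1 and 2. These 4 best peaks shared 164 bp (21154178 to 21154341) across the gene's left end, and the other peaks of Simba2 batch 2 had summits past the right end, in Mpp6. Here the batches of Simba2 were apart, one below the 0.05 limit on q and one not.

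Rbf, the retinoblastoma-family protein that restrains E2f1, had 1, 1, 2 and 2 peaks. Its best peaks fell at opposite ends of the gene, near the right end in batch 1 (3.32-fold, q 8.91e-06 for Simba1 and 2.68-fold, q 0.00204 for Simba2) and near the left end in batch 2 (1.84-fold, q 0.123 and 2.72-fold, q 1.52e-05). The place of the best peak thus differed by batch, and each batch has its own control.

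CycE, which with Cdk2 starts S phase, spans 20570 bp and had 4, 3, 4 and 6 peaks. The best reached 2.60-fold (q 1.18e-07), 2.65-fold (q 0.0260), 2.64-fold (q 1.31e-07) and 3.18-fold (q 1.13e-10) in Simba1 batches 1 and 2 and Simba2 batches 1 and 2. The batch 1 peaks lay 8738 and 8807 bp into the gene, the Simba1 batch 2 peak lay 834 bp to the left of it, and the Simba2 batch 2 peak lay 18401 bp in. The gene was called in every library without one place that all 4 shared.

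Cdk2 had 1, 1, 2 and 2 peaks, with best values of 5.42-fold (q 4.87e-06), 3.32-fold (q 0.00531), 4.38-fold (q 0.00062) and 2.59-fold (q 0.00822). The Simba1 batch 2 peak lay at the left end of the gene and the best peaks of the other 3 libraries towards or past the right end, where CG17267 also lies. The other peak of Simba2 batch 2 (2.58-fold, q 0.0301) was also at the left end and shared 450 bp with the Simba1 batch 2 peak. Cdk4, the cyclin D kinase, had 1, 1, 2 and 4 peaks, with best values of 2.20-fold (q 0.00178), 1.65-fold (q 0.285), 3.14-fold (q 2.11e-07) and 2.26-fold (q 0.00027). Its partner CycD had peaks in Simba2 batch 2 alone, and the better of its 2 peaks there (3.22-fold, q 3.76e-12) reached the neighbouring gene Lrp4.

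Among replication genes, dup and PCNA had a peak in all 4 libraries, and of these dup alone had q of 0.05 or lower in each. Its product, known as Cdt1 in other animals, loads the MCM helicase onto origins. It had 2, 1, 2 and 4 peaks, and the best reached 3.82-fold (q 1.14e-05), 2.10-fold (q 0.0312), 2.62-fold (q 0.000598) and 2.25-fold (q 0.000188). Inside the gene, 279 bp (2R, 15379274 to 15379552) lay under peaks of all 4 libraries, although the Simba2 batch 2 peak there was not its best and had q of 0.265.

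PCNA, the sliding clamp of DNA polymerases, had 2, 1, 1 and 2 peaks, with best values of 2.86-fold (q 0.0300), 1.77-fold (q 0.398), 2.68-fold (q 0.0556) and 2.72-fold (q 0.00201). The best peaks had summits 240 to 951 bp left of the gene, inside the neighbouring gene Hsl. A total of 5 peaks from the 4 libraries joined into one stretch there, of which 2 were separate peaks of Simba1 batch 1. Bases lay under peaks of all 4 libraries at 2 places in it. The remaining peak, of Simba2 batch 2 (q 0.0782), lay inside PCNA.

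A group of 3 MCM subunits, the helicase that unwinds DNA at the fork, had values in full by the naming rule. Mcm2 had a single peak in each library except Simba1 batch 2, at 1.68-fold (q 0.00931) in Simba1 batch 1, 1.86-fold (q 0.00125) in Simba2 batch 1 and 2.47-fold (q 1.54e-09) in Simba2 batch 2. Their summits lay within 20 bp of each other, 414 to 434 bp left of Mcm2, and the peaks also reached RPA1, which encodes a subunit of the single-strand binding protein of replication. The MCM gene dpa (Mcm4) had best peaks of 2.67-fold (q 2.16e-05), 2.82-fold (q 3.47e-05) and 2.82-fold (q 3.21e-09) in the same 3 libraries, with summits within 40 bp, just left of the gene and next to CG1620. In both genes the 3 libraries with a peak had it at one place.

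Mcm5 differed from these, with best peaks at 3.50-fold (q 0.00147), 3.37-fold (q 0.00726) and 2.48-fold (q 0.0251) that shared no place across the 3 libraries. Mcm6 had peaks in both Simba1 batches and in Simba2 batch 2, Mcm7 in the batch 2 libraries, and Mcm3 in Simba2 batch 2 alone. Every MCM gene thus had a peak in Simba2 batch 2, the longest list, in which 77.4% of all genes had one. The Mcm3 peak there had q of 0.177 and lay past the right end of the gene, with its summit in CG3309.

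Of the origin recognition complex genes, Orc5 had one peak in each of the same 3 libraries as Mcm2, at 3.04-fold (q 0.000135), 4.32-fold (q 7.02e-09) and 1.94-fold (q 0.0658). The summits lay within 49 bp of each other at the left end of Orc5, in peaks that also reached Arpc1, so the peak cannot be assigned to one of the pair. Orc1 had peaks in Simba1 batch 1 and both Simba2 batches, and Orc2 in every library except Simba1 batch 1. All Orc2 summits lay outside that gene, by 922 to 1412 bp, in the neighbouring genes Kots or rdx.

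cid encodes the fly's centromeric histone H3 variant (CENP-A in vertebrates) and lay beside the highest-ranked peak near any of the 36 genes. It had 0 peaks in Simba1 batch 1 and 1 weak peak in Simba1 batch 2 (2.33-fold, q 0.169, rank 13689 of 20002). In Simba2 batch 1 the peak reached 5.83-fold (q 1.23e-09, rank 322 of 21727), and in Simba2 batch 2 12.1-fold (q 2.21e-28, rank 2 of 33465). The 3 summits lay 409 to 490 bp left of cid (2R, 13485617 to 13486631), inside the neighbouring gene cbc, and the 3 peaks shared 845 bp. The 2 Simba2 folds lay above the Simba1 batch 2 value, and these folds come from lists of different length and depth.

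twe, a Cdc25 phosphatase known for its part in meiosis, had the closest summits of any stretch found in 3 or 4 libraries. Its best peak reached 2.82-fold (q 9.12e-05) and 2.36-fold (q 0.0213) in Simba1 batches 1 and 2, and 2.49-fold (q 0.00124) and 3.53-fold (q 2.81e-07) in Simba2 batches 1 and 2. All 4 summits fell within 7 bp, 2592 to 2599 bp from the left end of a gene of 2464 bp, and therefore just past its right end (2L, 16259414 to 16261877). The 277 bp common to all 4 peaks (16261858 to 16262134) also lie at CG4935, so the peak belongs as much to that gene by position.

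cnn, a scaffold protein of the centrosome, had 3, 3, 3 and 5 peaks along its 11162 bp. The best reached 3.18-fold (q 0.00133), 3.54-fold (q 0.00284), 3.41-fold (q 0.00011) and 2.69-fold (q 0.00964), each at a different place. One stretch of 477 bp (2R, 13447471 to 13447947) lay under peaks of all 4 libraries, and there the Simba1 batch 2 peak had q of 0.947.

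CycA and CycB, the cyclins that bring cells into mitosis, met the 0.05 limit on q in both Simba2 batches and not in both Simba1 batches. CycA had best peaks of 3.25-fold (q 0.000226) and 3.78-fold (q 5.44e-06) in Simba2 batches 1 and 2, 1.99-fold (q 0.341) in Simba1 batch 1, and none in Simba1 batch 2. CycB had best peaks of 2.38-fold (q 0.0019) and 2.66-fold (q 6.09e-10) in Simba2, none in Simba1 batch 1, and 1.96-fold (q 0.00301) in Simba1 batch 2. The best peaks of the Simba2 batches lay apart in both genes. In CycA their summits were 2481 and 585 bp from the left end. For CycB they were 635 bp left of the gene and 1126 bp into it, and the Simba1 batch 2 summit was also at 1126 bp. Peaks of the 2 Simba2 batches shared bases at 1 place for each gene. For CycA this place lay inside the gene. For CycB it lay past the right end, in peaks that also reached the gene stl. CycB3 had peaks in Simba2 batch 2 alone. Their kinase Cdk1 had peaks in batch 1 alone, in both proteins.

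BubR1, a checkpoint protein that delays anaphase until kinetochores are attached, had best peaks of 3.49-fold (q 4.68e-05), 4.47-fold (q 6.61e-09) and 2.07-fold (q 0.0498) in all libraries except Simba1 batch 2, with summits within 74 bp at the left end of the gene. fzy, the Cdc20 activator of the anaphase-promoting complex, had 1 peak in the same libraries, at 2.64-fold (q 0.00657), 1.56-fold (q 0.661) and 2.14-fold (q 0.00155), and its summits lay near the right end of the gene, where cact also lies. The kinase gene polo had 3 peaks in Simba1 batch 2 and 3 in Simba2 batch 2, with best values of 3.54-fold (q 0.00183) and 5.67-fold (q 1.21e-09), against 0 and 1 in batch 1. The 12 genes that had peaks but not by the rule for full values had best peaks between 1.53-fold (aurB, Simba2 batch 1, q 0.508) and 5.67-fold (polo).

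**Figure D3:**
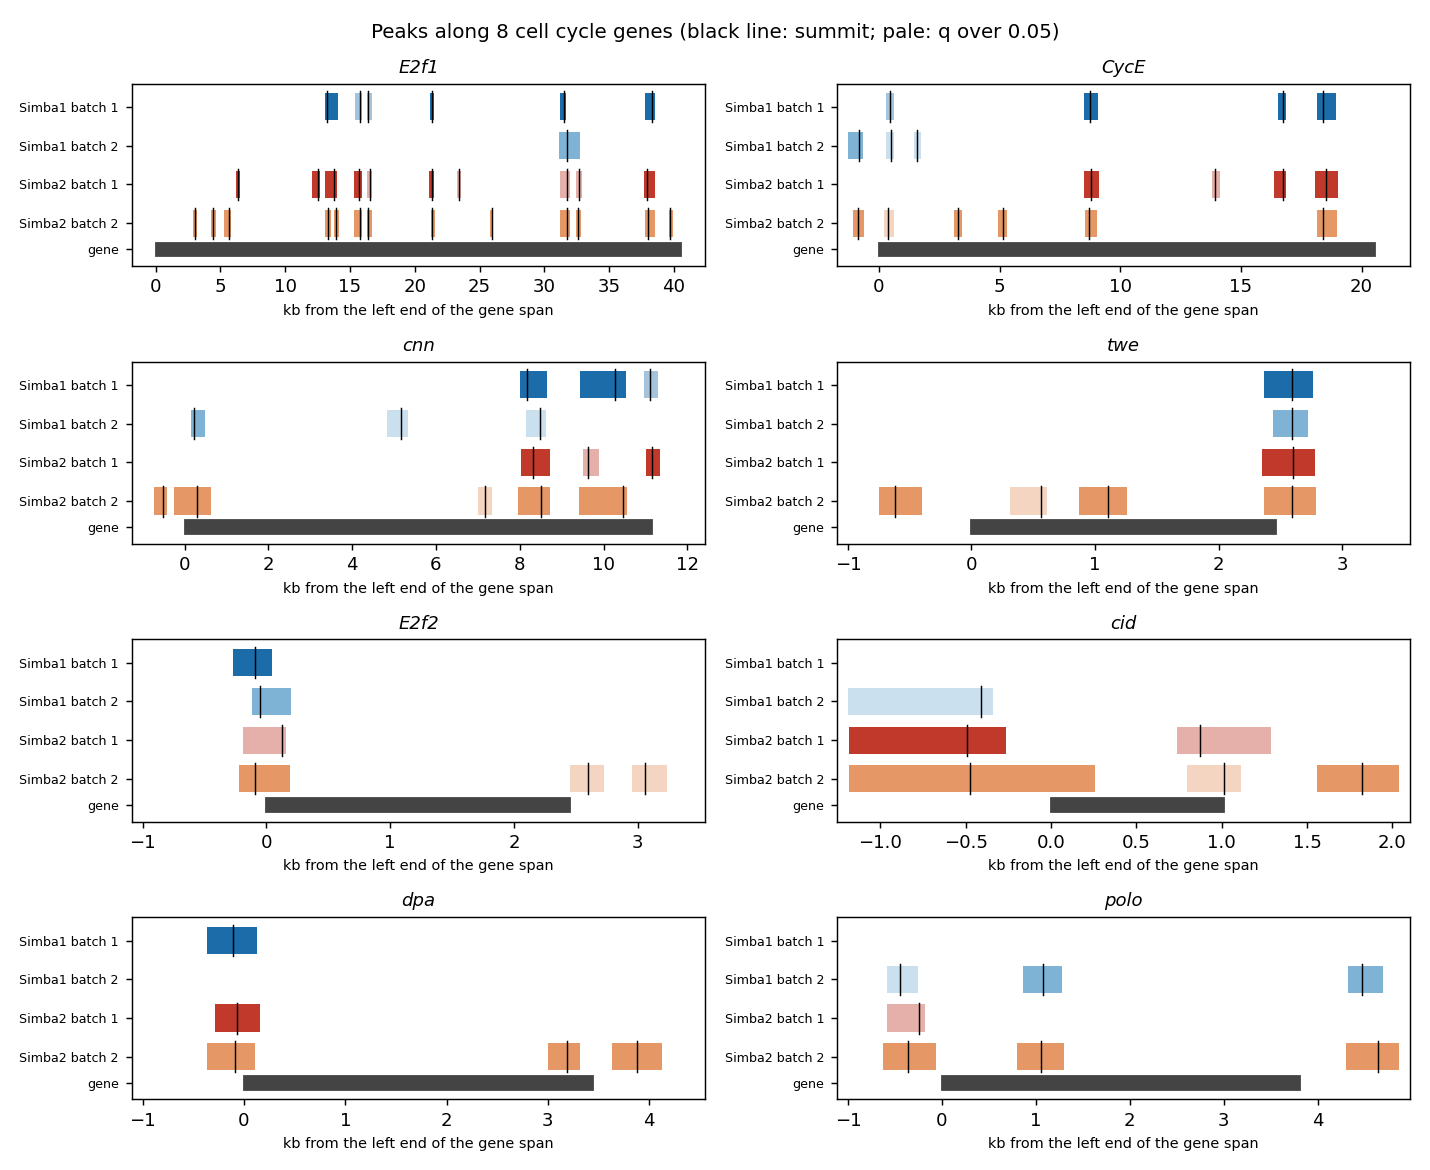
Peaks of the 4 libraries (rows) along E2f1, CycE, cnn, twe, E2f2, cid, dpa and polo, drawn to scale in kb from the left end of each gene (dark bar); each coloured bar is a peak, pale where q is over 0.05, and the black line its summit. The twe summits line up in all 4 libraries and the dpa and cid summits in 3, while E2f1 and CycE carry peaks at several places that differ between libraries.

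Peaks at the 36 genes numbered 37, 24, 51 and 89 in Simba1 batches 1 and 2 and Simba2 batches 1 and 2. This was 14.8, 9.58, 20.4 and 35.5 peaks per 100 kb of gene window, where whole arms had 12.6, 14.9, 16.2 and 25. Windows of all genes, a closer measure, had 13.7, 14.4, 17.6 and 28.6. Simba1 batch 2 was below both of its densities and the other libraries were above theirs. The share of peaks with q of 0.05 or lower was 75.7, 45.8, 54.9 and 71.9%, beside 61.3, 41.8, 54.5 and 58.9% for peaks at all genes.

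Summits fell within 1 kb of a gene end for 64.9% of these peaks in Simba1 batch 1 (95% Clopper-Pearson interval 47.5 to 79.8%), 54.2% in Simba1 batch 2 (32.8 to 74.4%), 56.9% in Simba2 batch 1 (42.2 to 70.7%) and 56.2% in Simba2 batch 2 (45.3 to 66.7%). The intervals cover counting error only. Genes of like span had 52.6, 57.1, 51.3 and 52.5%, all inside those intervals. Counted by gene, 20, 11, 23 and 28 of the 36 had a summit in this zone, beside like-span counts of 15.4, 13.4, 18.0 and 26.2 and 39.5, 34.9, 46.7 and 67% of all genes.

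Peaks of the replication genes lay mostly outside the gene itself. Their summits were inside the gene span in 2 of 11, 2 of 6, 2 of 9 and 10 of 23 peaks, which is 18.2, 33.3, 22.2 and 43.5%, beside 44.9, 41.6, 47.9 and 49.5% for genes of like span. The exact intervals around these shares (2.28 to 51.8%, 4.33 to 77.7%, 2.81 to 60% and 23.2 to 65.5%) each contain the like-span value, so no difference was detectable at these counts. For the G1/S genes, which are longer, the shares inside were 81.3, 75.0, 91.7 and 75.0%, beside 80, 74.8, 80.3 and 77.8% for genes of like span. For the mitotic genes they were 80, 60, 61.1 and 56.7%, beside 55.9, 62.3, 53.1 and 61%. Of the peaks at all 36 genes, 24, 13, 30 and 61 also reached another gene, which limits how firmly a peak can be given to a cell cycle gene.

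**Figure D4:**
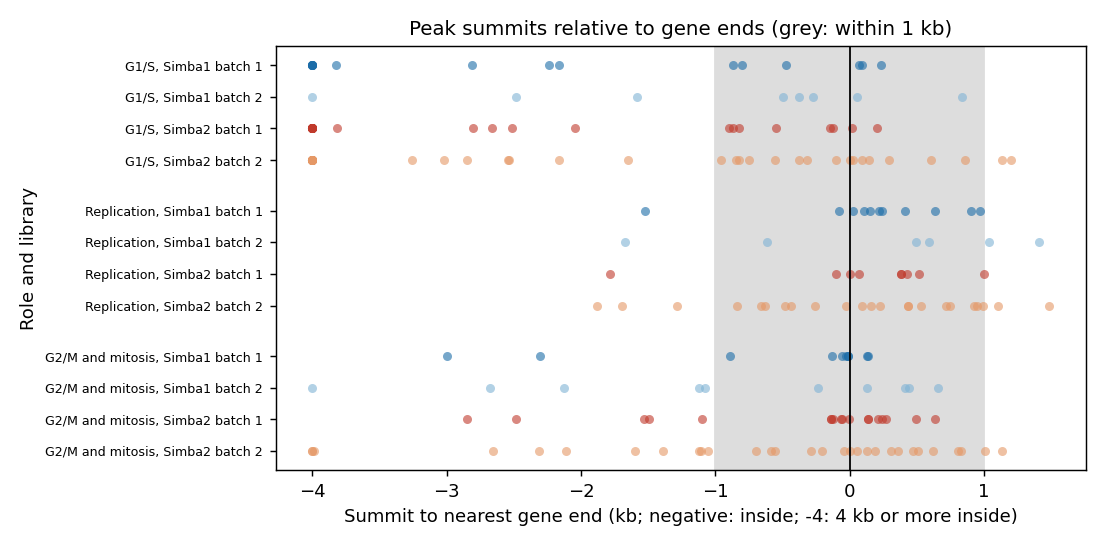
Distance of each peak summit from the nearest end of its cell cycle gene (kb, negative inside the gene), by role and library; each point is a peak. Points at −4 lie 4 kb or more inside a gene. Most replication gene summits lie within 1 kb of an end (grey) except in Simba1 batch 2 (50%), and genes of like span have 74.8 to 82.1% there. The G1/S summits reach far into the longer genes.

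The same places were found again in the second batch for part of the peaks. Between the Simba2 batches, 34 of 51 batch 1 peaks (66.7%) met a batch 2 peak by at least 1 bp, and 36 of 89 batch 2 peaks (40.4%) met a batch 1 peak, beside 51.9 and 33.7% over all peaks. Between the Simba1 batches the counts were 8 of 37 (21.6%) and 7 of 24 (29.2%), beside 26.9 and 22.7%. Overlaps between the proteins within a batch are not given, because those lists share a control, so sharing by protein and by batch is not compared. The Simba1 lists are the shorter, and the part of list length in these shares was not tested. By gene, peaks of the 2 batches shared bases at 7 genes for Simba1 (like-span count 6.67, 17.5% of all genes) and 21 genes for Simba2 (16.8, 42.4%). The gene's best peaks shared bases at 4 genes for Simba1 (E2f2, dup, PCNA and twe; 8.44% of all genes) and 10 for Simba2 (E2f2, Dp, PCNA, Mcm2, dpa, Orc5, twe, fzy, BubR1 and cid; 23%).

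Joined across libraries, the peaks formed 108 separate stretches, of which 57 (52.8%) were covered in 1 library, 19 (17.6%) in 2, 26 (24.1%) in 3 and 6 (5.56%) in all 4. Over the whole arms the shares were 58.3, 24.1, 13.1 and 4.49%. The stretches covered in all 4 libraries lay at E2f1, E2f2, dup, PCNA, twe and cnn. At these 6 genes, and at 11.1% of all genes, peaks of all 4 libraries also shared bases.

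Many of these peaks stood on a high background in the Dam-only control. The median local background under them, in reads scaled to the smaller library of each pair, was 5.54, 3.50, 7 and 5.76 reads, beside 2.22, 2.72, 2.23 and 3.48 for peaks at all genes. A background of 10 reads or more was found under 29.7, 20.8, 33.3 and 30.3% of them, beside 4.78, 1.99, 5.22 and 9.21%. The share was highest for G1/S genes, at 50, 25, 50 and 47.2%. For replication genes it was 18.2, 16.7, 22.2 and 30.4%, and for mitotic genes 10, 20, 16.7 and 10%. The replication median in Simba1 batch 2 was 2.68, below that for all genes. These values stand beside all genes, not genes of like span. Without E2f1 the medians for the list were 5.54, 4.00, 6.67 and 5.69, so the gene with the most peaks does not set those medians. The median fold was 2.70, 2.50, 2.40 and 2.37, beside 2.94, 2.66, 2.77 and 2.46 for all genes, lower in every library. A higher background lowers the fold that the same excess of reads gives, and its part in these folds was not tested.

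**Figure D5:**
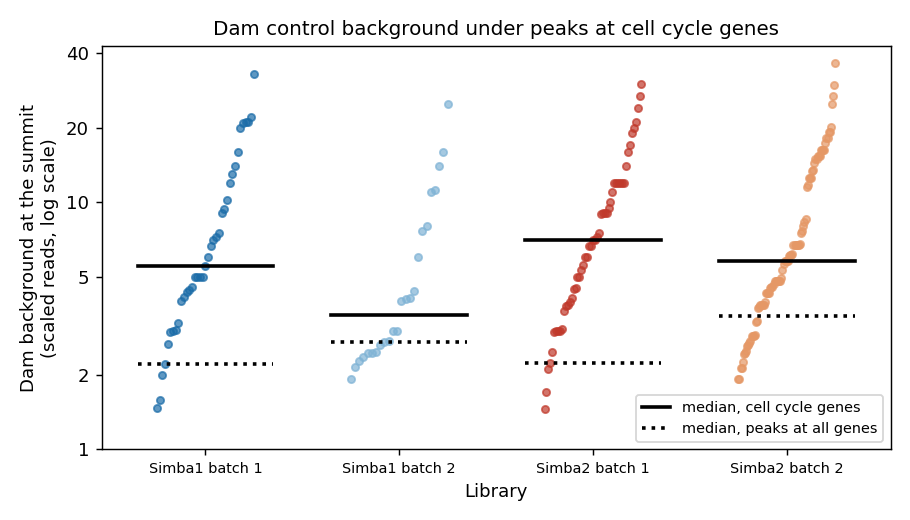
Local background in scaled reads at the summit (log axis) of each peak at the cell cycle genes, by library; solid lines are the median of these peaks and dotted lines that of peaks at all genes. In all 4 libraries the median under peaks at the 36 genes (3.50 to 7) was above that for all genes (2.22 to 3.48).

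A wider list of 111 other cell cycle genes, covering further regulators of S phase, replication factors, checkpoint kinases and mitotic proteins, had counts close to or below those of genes of like span. Of these genes 63, 47, 63 and 93 had a peak, beside like-span counts of 62.4, 56.0, 71.6 and 94.5. In both Simba1 batches 28 had one (like-span count 35.5), in both Simba2 batches 57 (64.9) and in all 4 libraries 22 (29.8). Of the 30 further replication genes 2 had a peak in all 4 libraries (like-span count 6.82), of the 7 checkpoint kinases 3 (2.40) and of the 58 mitotic genes 14 (15.6).

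Ranked by the mean percentile of their best peak, the leading 8 of these 22 genes were ago, grp, tacc, Grip91, pav, CycG, SMC1 and pbl. The F-box protein ago marks cyclin E for degradation, grp is the fly Chk1 kinase, and pav and pbl act in cytokinesis. The best ago peaks reached 3.43-fold (q 1.79e-05) and 3.99-fold (q 0.000576) in Simba1 batches 1 and 2, and 2.89-fold (q 3.84e-06) and 3.91-fold (q 5.02e-08) in Simba2 batches 1 and 2. The genes ago and pav are neighbours and share peaks, so they are not separate observations.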

How the data were processed

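The 4 fusion libraries were analysed from the peak lists the authors deposited. Per the file headers, MACS 3.0.0 called peaks per fusion library, with the Dam-only library of that batch as control, a q limit of 1, 1 tag kept per position and an effective genome size of 2910000000, against 134 Mb for the arms (a ratio of 21.7). The submitters' processing notes name bcl2fastq, FastQC, Bowtie2 and ChIPseeker, and the build dm6. Each deposited list gives the pileup as coverage signal, the p and q as −log10 values, and fold enrichment as a ratio, per the file headers. Libraries were sequenced as paired reads of 250 bp on a MiSeq, per the labels' protocols.

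Gene spans came from RefSeq Release 6 (dm6). Local background was computed from deposited pileup and fold, and checked against the deposited −log10 p, which it gave within 0.01 for 99.6 to 100% of peaks. Genes were matched to peaks by an overlap of at least 1 bp with the span plus 1 kb on each side, with Python 3.11.15, pandas 2.3.3 and SciPy 1.17.1, and matching was tested on simulated peaks. The rule for full values took genes with a peak in all 4 libraries, q of 0.05 or lower in both batches of a protein, or best peaks of both batches sharing bases; of the wider list it took the 8 highest by mean percentile. Of 112 listed further genes, 111 were matched, and SA was not. The genes and lists were chosen with earlier results of these data known. Sequence motifs, gene strand and start sites were not analysed here.

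The labels give each library a batch number. Per the file headers, both fusion libraries of a batch were called against its control, so batch pairs the libraries. Deviations of the 2 proteins from their means correlated at Pearson r = 0.264 over 13390 bins of 10 kb, which are not independent. Alternatives were stricter q limits, equal list lengths, other flanks and span classes, a raised background, and leaving out each library.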

Additional observations from a re-analysis of the deposited data

How the results depend on the processing

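Counts depended on the q limit. Of 139 values under alternatives, 111 stayed within 1.5 times the value reported and 28 did not. The mean count for Simba2 stayed above that for Simba1, but the order within batch 1 did not hold. At q of 0.05 or lower, batch 1 had 20 genes for Simba1 and 17 for Simba2, also with the raised background, whereas batch 2 had 10 and 26. With q of 0.05 or lower, 10 of the 36 genes had a peak in Simba1 batch 2, 17 in Simba2 batch 1, 7 in both Simba1 batches and 6 in all 4 libraries; raising the background to the arm average gave the same 4 numbers. With q of 0.001 or lower, 11, 2, 12 and 18 genes had a peak in Simba1 batches 1 and 2 and Simba2 batches 1 and 2, with 1 in both Simba1 batches, 8 in both Simba2 batches and 1 in all 4. In both Simba2 batches that limit left 4 G1/S, 2 replication and 2 mitotic genes, beside like-span counts of 2.01, 1.61 and 2.48 and 15.4% of all genes. Replication genes in both Simba2 batches numbered 4 at q of 0.05, also with the raised background, and 3 with no flank. In these settings 34.5, 32.2 and 34.6% of all genes had a peak in both. The wider list fell to 12 genes in both Simba1 batches at q of 0.05, 11 with the raised background and 5 at q of 0.001. These stood beside 14.7, 12.5 and 3.73% of all genes, with like-span counts of 16.4 at 0.05 and 3.5 at 0.001. In both Simba2 batches the wider list fell to 16 at q of 0.001, beside a like-span count of 18.4 and 15.4% of all genes. Leaving out 1 library gave 17 to 22 genes for Simba1 (46.6 to 51.1% of all genes) and 26 to 29 for Simba2 (58.9 to 77.4%). In all the libraries left it gave 10 to 19, with 19 when Simba1 batch 2 was out (39.7% of all genes). Against genes of like span, the side turned at q of 0.05 for several counts. For the 36 genes these included Simba2 batch 1 (17 against 17.1, from 26 against 23.0), Simba2 batch 2 (26 against 25.1, from 29 against 30.4) and both Simba1 batches (7 against 5.56, from 11 against 11.4). For replication genes they included Simba2 batch 1 (5 against 5.28, from 8 against 7.51), Simba2 batch 2 (8 against 8.41, from 11 against 10.6) and both Simba2 batches (4 against 4.1, from 8 against 6.57). For mitotic genes they included Simba2 batch 1 (6 against 7.08, from 11 against 9.55) and both Simba2 batches (6 against 5.8, from 8 against 8.59). With batch as a replicate block, Simba2 exceeded Simba1 by a mean of 8 genes, as without it (4 and 12 by batch). Fewer peaks pass a stricter limit by construction. Depth limits what an absent peak shows.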
